A study of Homo sapiens with 38 samples.

Results

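The Frizzled receptor genes FZD1 to FZD10 were taken by name, all 10 of them, from the 19970 protein-coding genes with a promoter in the series. Each gene had 1 promoter window, the start site of its canonical transcript (TSS) ± 1500 bp, and a protein was counted at a promoter when an enriched region touched that window. Frizzled proteins are membrane receptors that bind Wnt ligands through a cysteine-rich extracellular domain. Together with the co-receptors LRP5 and LRP6 they pass the signal to Dishevelled proteins and stabilise β-catenin, and with ROR or RYK co-receptors they act in β-catenin-independent Wnt signalling and planar cell polarity. By sequence the family falls into FZD1, FZD2 and FZD7, then FZD5 and FZD8, then FZD4, FZD9 and FZD10, and last FZD3 and FZD6, and the genes are described here in that order.

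The data were CUT&RUN libraries, in which an antibody guides a nuclease to a protein on chromatin and the released DNA is sequenced, for DPPA2 and DPPA4, a pair of embryonic chromatin factors. H661 (NCI-H661) is a lung large cell carcinoma line that makes both factors itself, and parental H661 gave 1 DPPA2 library and 3 DPPA4 libraries, from an N-terminal antibody (DPPA4n), a central-region antibody (DPPA4c) and antibody ab154642. H1299 (NCI-H1299) is a lung cancer line that lacks both factors; here it carried stable doxycycline-inducible Flag-DPPA2 and V5-DPPA4, was induced for 7 days with 2 µg/mL doxycycline, and gave 12 libraries from 6 antibodies with 2 replicates each. No H1299 library without doxycycline was analysed here. H661 also carried stable doxycycline-inducible miR30-based hairpins against DPPA4 (shDPPA4) or against DPPA2 and DPPA4 (shDPPA2+4), both as sorted bulk populations, and each line was grown for 7 days with water (control) or with 2 µg/mL doxycycline. The control arm of each hairpin line gave 1 library each for DPPA4n, RING1B, PCGF1, MTF2 and EP300, and the doxycycline arm gave DPPA4n and RING1B. RING1B ubiquitinates histone H2A within Polycomb repressive complex 1, and PCGF1 belongs to a variant form of it. MTF2 helps bring Polycomb repressive complex 2 to CpG-rich DNA, and EP300 is a histone acetyltransferase of active regulatory DNA. H661 and hairpin-line values therefore rest on 1 library per group with no replicate check, and intervals given for them cover counting error only. The H1299 replicates are numbered in the labels, nothing says that they came from separate cultures, and a p-value there reflects spread among libraries that may be technical repeats.

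Depth differed widely. Regions kept here (false discovery rate below 0.05 and over 2-fold above IgG) held from 48262 reads in the second Flag monoclonal library of H1299 to 6850681 reads in MTF2 of the shDPPA2+4 control. That Flag monoclonal library stood apart with 4904 kept EPIC2 domains, where the other 11 H1299 libraries had 13811 to 42537. In domains with identical bounds, the IgG counts of the control and doxycycline arms of each line were equal in 100% of cases, so both arms were set against 1 IgG library. The parental DPPA2 library had the same IgG count as the DPPA4n library in 30.3% of 966 identical domains, so DPPA2 and DPPA4 of parental H661 were set against different IgG libraries. The hairpin lines hold no measure of DPPA2 or DPPA4 RNA here, and the knockdown was not checked in these files.

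All positions are on hg38 with GENCODE 44 start sites. FZD1 starts at position 91264433 of chromosome 7, FZD2 at 44557484 of chromosome 17, FZD7 at 202033855 of chromosome 2, FZD5 at 207769906 of chromosome 2, FZD8 at 35642296 of chromosome 10, FZD4 at 86955395 of chromosome 11, FZD9 at 73433778 of chromosome 7 and FZD10 at 130162464 of chromosome 12. 6 of these genes (FZD1, FZD2, FZD7, FZD8, FZD9 and FZD10) have a single exon, FZD4 and FZD5 have 2 exons, and FZD3 and FZD6 have 8 and 7. The promoter window reaches into coding sequence at every member but FZD3, whose coding sequence begins 8802 bp after the start site. The GC content of the TSS ± 500 bp ran from 64.7% at FZD1 to 76.7% at FZD10, and the ratio of observed to expected CpG from 0.729 at FZD2 to 0.961 at FZD7. By a GC content above 55% and a CpG ratio above 0.75, 9 of 10 Frizzled promoters were CpG-rich, all but FZD2. FZD10, the most GC-rich member, exceeded 97.0% of all promoters in GC content. A long non-coding RNA starts upstream on the opposite strand 208 bp from FZD10 (FZD10-AS1), 221 bp from FZD4 (FZD4-DT), 126 bp from FZD6 (BAALC-AS1) and 318 bp from FZD7, and CUT&RUN cannot assign a region there to either partner.

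Sequence at the points of highest enrichment is shown for 3 members, to set a coding site, an upstream site and a RING1B site side by side. Each run is 201 bases, 100 on either side of a MACS2 summit, read 5′ to 3′ along the gene from the hg38 genome, with every CG in capitals. The FZD7 run, at chr2:202034738-202034938 on the plus strand, surrounds the DPPA2 summit of parental H661 and lies wholly in coding sequence. The FZD4 run, at chr11:86955640-86955840 on the minus strand, surrounds the DPPA4n summit of parental H661, upstream of the start site. The FZD10 run, at chr12:130161933-130162133 on the plus strand, surrounds the RING1B summit of the shDPPA4 control, also upstream, at a promoter with no DPPA2 or DPPA4 region in parental H661 or H1299 and a DPPA4n domain of 9 reads, from -463 to 236 bp, in the shDPPA2+4 control.
FZD7: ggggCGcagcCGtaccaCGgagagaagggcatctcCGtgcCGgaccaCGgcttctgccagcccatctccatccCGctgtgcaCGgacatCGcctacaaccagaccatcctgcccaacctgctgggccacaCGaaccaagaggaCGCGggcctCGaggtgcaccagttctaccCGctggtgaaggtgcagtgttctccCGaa
FZD4: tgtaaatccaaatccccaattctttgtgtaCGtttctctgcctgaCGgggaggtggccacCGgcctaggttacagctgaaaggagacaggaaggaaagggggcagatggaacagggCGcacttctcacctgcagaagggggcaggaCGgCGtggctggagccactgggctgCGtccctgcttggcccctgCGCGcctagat
FZD10: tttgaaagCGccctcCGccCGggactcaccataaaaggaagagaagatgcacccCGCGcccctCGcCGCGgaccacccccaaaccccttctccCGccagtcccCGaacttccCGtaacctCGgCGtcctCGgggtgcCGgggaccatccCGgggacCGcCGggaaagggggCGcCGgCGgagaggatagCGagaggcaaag
They hold 15, 9 and 22 CG pairs at a GC content of 64.7%, 60.2% and 68.7%, so the stretch with the most CG pairs of these 3 was the one at FZD10.

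For a further pair of members, the 250 bases before the RefSeq start (GRCh38.p14) are given for FZD1 at chr7:91264183-91264432 and FZD9 at chr7:73433528-73433777, both on the plus strand and marked in the same way. The RefSeq promoter table matched 5 of 10 members.
FZD1: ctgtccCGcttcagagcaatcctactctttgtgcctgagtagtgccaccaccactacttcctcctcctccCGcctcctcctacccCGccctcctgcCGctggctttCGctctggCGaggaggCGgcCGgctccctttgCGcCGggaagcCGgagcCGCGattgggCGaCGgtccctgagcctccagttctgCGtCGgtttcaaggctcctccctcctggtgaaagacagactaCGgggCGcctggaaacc
FZD9: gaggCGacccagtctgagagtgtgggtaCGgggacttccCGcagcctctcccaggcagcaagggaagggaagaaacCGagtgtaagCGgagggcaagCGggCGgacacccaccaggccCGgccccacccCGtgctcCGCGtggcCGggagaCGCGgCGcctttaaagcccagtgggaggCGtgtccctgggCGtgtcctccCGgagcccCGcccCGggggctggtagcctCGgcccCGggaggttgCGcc
These hold 19 and 23 CG pairs. FZD1 and FZD9 are shown because, together with FZD5, they carried an EPIC2 domain in all 16 parental H661 and H1299 libraries. This was not counted over all promoters, of which 5.27% had a domain in the second Flag monoclonal library.

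Across all 30 libraries, FZD1 and FZD5 carried a domain in 30, FZD2, FZD7, FZD8 and FZD9 in 29, FZD4 in 28, FZD3 in 27, FZD6 in 21 and FZD10 in 7. These library counts were not made for all promoters. FZD10 had no region from either caller in the 16 parental H661 and H1299 libraries, like 27.1% of all and 4.04% of CpG-rich promoters. The heat map of fold over IgG shows 9 rows that are mostly filled and the FZD10 row, which is empty in parental H661 and H1299 and filled only in part in the hairpin lines.

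**Figure D1:**
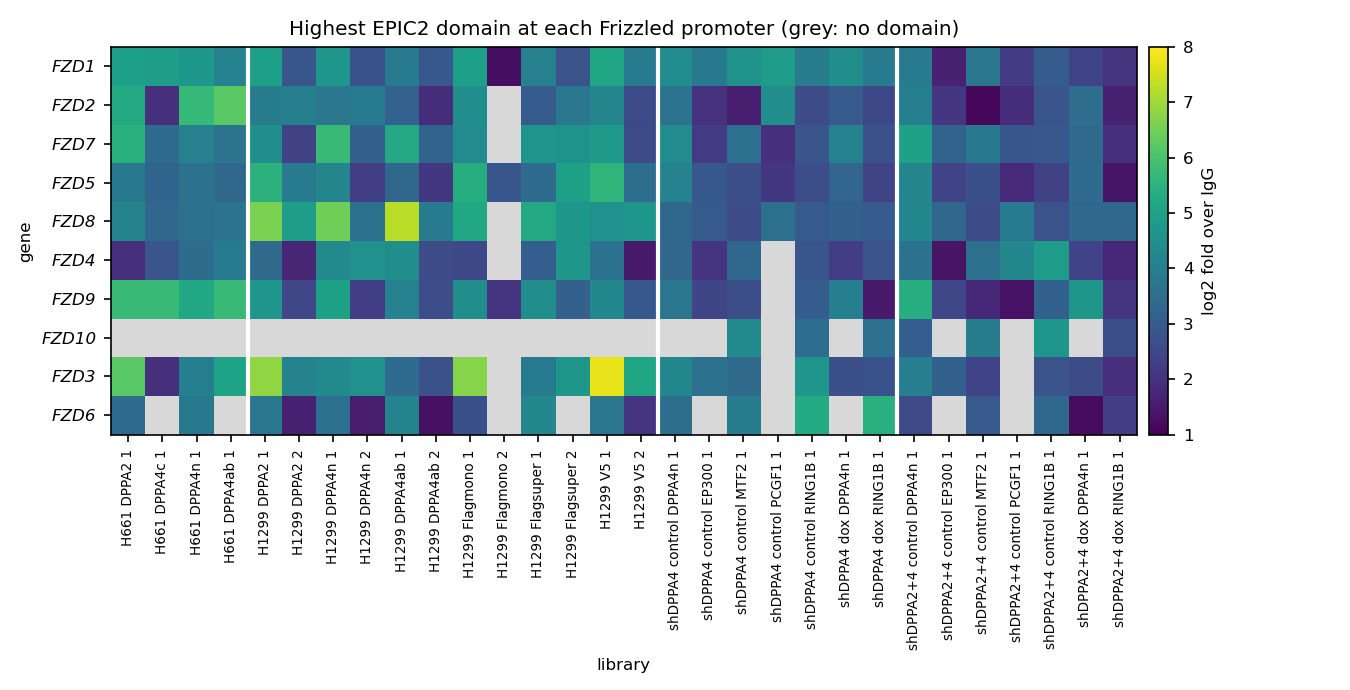
Log2 fold over IgG (colour) of the highest EPIC2 domain touching the TSS ± 1500 bp of each Frizzled gene (rows) in each of 30 libraries (columns; the last number is the replicate), with white lines between parental H661, H1299, the shDPPA4 line and the shDPPA2+4 line. Grey cells have no domain; FZD10 is grey in all 16 parental H661 and H1299 libraries, and the second Flag monoclonal library of H1299 is coloured only at FZD1, FZD5 and FZD9.

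The first comparison asked which Frizzled promoters carry both factors where they are made from their own genes. In parental H661, 8 of 10 Frizzled promoters had a MACS2 peak of both DPPA2 and DPPA4n, all but FZD6 and FZD10, against 39.2% of all promoters and 61.2% of CpG-rich promoters. With EPIC2 domains, which join enriched 100 bp bins, 9 of 10 carried both, FZD6 now included, against 48.2% of all promoters and 72.4% of CpG-rich promoters. With the central-region antibody, whose library had 1725 kept peaks where DPPA4n had 19954, 5 of 10 carried both (FZD1, FZD7, FZD5, FZD4 and FZD9), against 5.35% of all promoters.

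FZD7 and FZD1, receptors of the first subfamily, had the highest DPPA2 peaks of the family. The MACS2 fold enrichment of DPPA2 and DPPA4n was 35.1 and 22.3 at FZD7 and 33.4 and 20.1 at FZD1. FZD2, the third member of that subfamily, was lower, with folds of 10.2 and 5.77. FZD1 had 221 DPPA2 reads over 1900 bp of domain where its IgG had 7, and its density of 90.1 scaled reads per kb ranked 15 among the 10690 promoters with a DPPA2 domain. A scaled read is a library's read divided by the size of that library relative to its IgG. FZD7 had 491 reads over 5300 bp and 29 IgG reads, at a density rank of 49.

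FZD5 and FZD8 differed from each other. FZD5 had folds of 18.5 for DPPA2 and 20.3 for DPPA4n, and FZD8 had 12.5 and 12.1. FZD5 had a DPPA2 density rank of 196, and FZD8 one of 2027. FZD4, the receptor for the non-Wnt ligand norrin, had a DPPA2 fold of 6.06 and a DPPA4n fold of 17.1. Of the 8 members with both peaks it was the one whose folds lay furthest apart, and the part of the different IgG libraries in that ratio was not tested. FZD9 had folds of 18.1 and 15.9.

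FZD3 and FZD6, receptors of planar cell polarity, start at positions 28494212 and 103298898 of chromosome 8. FZD3 had folds of 5.71 and 6.98, and its DPPA4n fold lay above the 5.77 of FZD2. FZD6 had no DPPA2 peak and a DPPA4n fold of 4.39, with 14 DPPA2 reads in a domain of 400 bp over 1 IgG read and 13 DPPA4n reads in 700 bp over 1. At FZD6 ab154642 gave a peak of 4.28-fold and no domain, and DPPA4c gave neither. FZD10 had no peak and no domain in any of the 4 libraries.

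The domains were not centred alike. At FZD7 the DPPA2 summit lay 983 bp and the DPPA4n summit 1046 bp after the start site, inside the coding part of its single exon, which begins at 793 bp. The DPPA4c and ab154642 summits lay at 848 and 951 bp, and the DPPA4n summits of the shDPPA4 and shDPPA2+4 controls at 1004 and 932 bp. All 6 libraries of H661 cells without doxycycline thus placed the summit between 848 and 1046 bp, in or beside the coding stretch printed above. RING1B (-79 and 147 bp), MTF2 (176 and 99 bp) and EP300 (-84 and -155 bp) had their FZD7 summits near the start site in the same control cells. After doxycycline the DPPA4n summit of FZD7 lay at 197 bp in shDPPA4 and 102 bp in shDPPA2+4. In H1299, 8 of the 11 libraries with a peak had summits between 86 and 217 bp, and the other 3 lay at 535 bp (V5 replicate 2), 830 bp (V5 replicate 1) and 902 bp (DPPA2 replicate 2).

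At FZD4 the summits lay upstream instead. The 4 parental H661 libraries placed them between -463 and -265 bp from the start site, and the 4 RING1B libraries between -483 and -276 bp. The MTF2 summits of FZD4 lay at 1 and -14 bp. At FZD9 a DPPA4n domain reached past the end of the gene in both hairpin-line controls. It covered 7400 bp in shDPPA4 and 6300 bp in shDPPA2+4, where a separate upstream domain brought the sum to 7100 bp. RING1B covered 900 and 1100 bp there and MTF2 800 and 1000 bp. FZD8 had DPPA4n domains of 9500 and 8800 bp that spanned its whole coding sequence. The domain map shows a DPPA4n bar in the shDPPA4 control that is longer than those of RING1B, MTF2, EP300 and PCGF1 at FZD2, FZD7, FZD5, FZD8, FZD9 and FZD3. Longer DPPA4n domains were general in that arm. Over all promoters with a domain, the median longest domain was 2000 bp for DPPA4n. It was 900 bp for RING1B, 1000 bp for MTF2, and 600 bp for EP300 and for PCGF1.

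The H1299 libraries asked whether tagged DPPA2 and DPPA4 take the same promoters in cells without their own. EPIC2 domains of DPPA2 and DPPA4n in both replicates were found at 9 of 10 Frizzled promoters, all but FZD10, against 30.6% of all promoters and 49.4% of CpG-rich promoters. The Flag superclonal and V5 antibodies, which bind the tags, gave 8 of 10 in both replicates, against 31.3% of all promoters. By MACS2, 3 of 10 (FZD1, FZD2 and FZD7) had peaks of both in both replicates, against 3.46% of all promoters, and the second DPPA2 and DPPA4n libraries had 2336 and 2353 kept peaks where the first had 22342 and 31039.

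FZD1 carried a domain in all 12 libraries. Its log2 fold over IgG was 4.96, 4.96 and 4.06 in the first replicates of DPPA2, Flag monoclonal and Flag superclonal and 2.86, 1.29 and 2.80 in the second, and 4.68, 3.87 and 5.12 in the first replicates of DPPA4n, ab154642 and V5 and 2.76, 2.92 and 3.91 in the second. The first replicate was higher than the second with all 6 antibodies. At FZD10 all 12 libraries had no domain and no peak.

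The 6 DPPA2-directed libraries (DPPA2 and both Flag antibodies) were compared with the 6 DPPA4-directed libraries (DPPA4n, ab154642 and V5) at 13637 promoters, with a promoter without a domain set to 0. An exact permutation test (two-sided, every relabelling of 6 against 6, Benjamini-Hochberg adjustment) called 0% of promoters, and limma also called 0. The permutation test gave 141 promoters with an unadjusted p under 0.05, its smallest possible p is 0.00216, and the lowest adjusted p was 1. Over 13637 promoters, an adjusted p under 0.05 would need many promoters at that smallest p, and 2 were there. The permutation count of 0 therefore cannot show that no promoter differed. Among the 9 Frizzled promoters tested, FZD5 had the highest mean in DPPA2-directed libraries relative to the others, 4.35 ± 1.09 (SD, n = 6) against 3.51 ± 1.27 (SD, n = 6) on the log2 scale, with an unadjusted exact permutation p of 0.242. This difference of 0.84 turned to -0.16 with windows of ± 500 bp. By the labels, the DPPA2, Flag monoclonal and V5 antibodies were mouse and the others rabbit. At FZD5 the first replicates of these mouse antibodies had log2 folds of 5.51, 5.36 and 5.57 over 5 IgG reads each. The rabbit antibodies DPPA4n, ab154642 and Flag superclonal had 4.18, 3.35 and 3.45 over 20 each. In the second replicates Flag superclonal was highest, at 4.99. The part of the IgG libraries in these differences was not tested. FZD4 lay the other way, at 2.58 ± 1.60 (SD, n = 6) against 3.51 ± 1.23 (SD, n = 6), with an unadjusted exact permutation p of 0.286. The other 7 had differences from -0.71 (FZD7) to 0.01 (FZD9). The median difference over all tested promoters was -0.47, so 5 of the 9 lay above it (FZD5, FZD9, FZD2 at -0.06, FZD3 at -0.27 and FZD1 at -0.39) and 4 below. None of the 9 differed by more than the spread between libraries, which includes the difference between replicates 1 and 2. With the replicate number as a block, the lowest unadjusted exact permutation p of the 9 was 0.145, at FZD6. Without the second Flag monoclonal library the difference became 0.58 at FZD2, 0.60 at FZD3, 0.24 at FZD8 and 0.05 at FZD1, each then on the DPPA2-directed side, and that library alone had no domain at FZD2, FZD7, FZD8, FZD4 and FZD3.

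**Figure D2:**
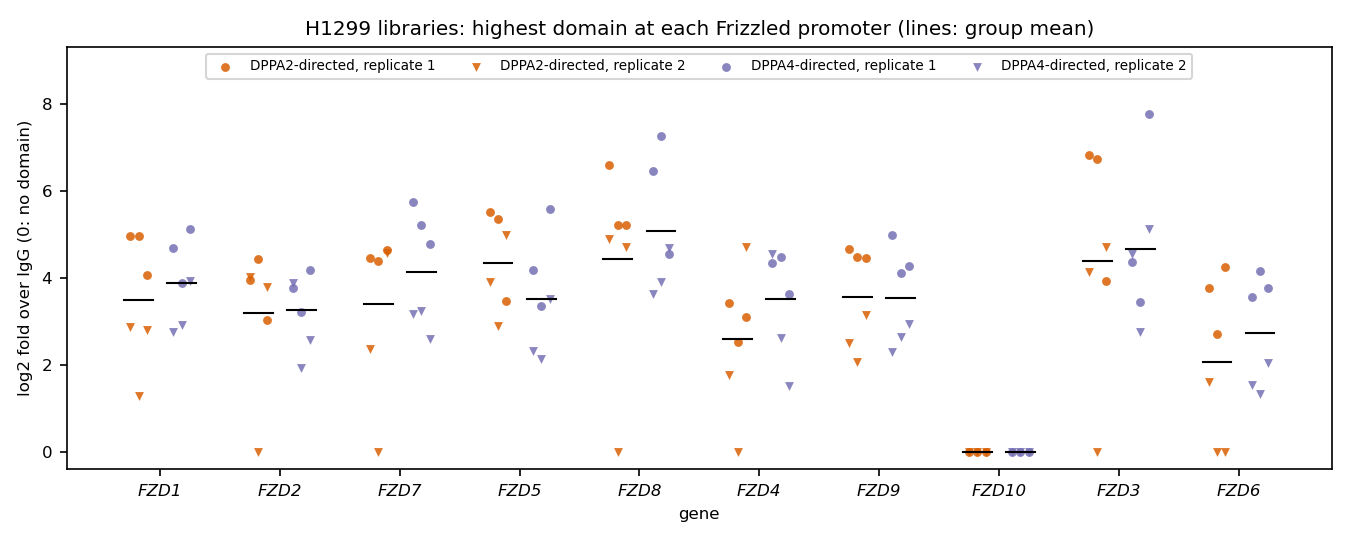
Log2 fold over IgG of the highest EPIC2 domain at each Frizzled promoter in the 12 H1299 libraries (0: no domain), with circles for replicate 1, triangles for replicate 2, orange for DPPA2-directed and purple for DPPA4-directed libraries, and black lines for the mean of each set of 6. The 2 colours overlap at every gene, FZD10 lies at 0 throughout, and most triangles lie below the circles.

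The hairpin-line controls asked which chromatin proteins share these promoters in H661. DPPA4n had a domain at 9 of 10 in shDPPA4, all but FZD10, and at 10 of 10 in shDPPA2+4, against 71.7% and 67.7% of all promoters and 94.9% and 93.2% of CpG-rich promoters. RING1B was at 10 of 10 in both lines, against 63.7% and 60% of all promoters and 90.9% and 87.1% of CpG-rich ones. MTF2 was also at 10 of 10 in both, against 61.5% and 62.1% of all and 86.5% and 86.8% of CpG-rich promoters. For these 3 proteins the Frizzled counts were thus near the shares of CpG-rich promoters. EP300 was at 8 of 10 in both lines, against 50.1% and 52.5% of all and 73.5% and 76.7% of CpG-rich promoters, and the 2 members without it were FZD6 and FZD10. PCGF1 was at 5 of 10 in shDPPA4 (FZD1, FZD2, FZD7, FZD5 and FZD8) and at 7 of 10 in shDPPA2+4 (these 5, FZD4 and FZD9), against 25.7% and 24.3% of all and 40.2% and 39.3% of CpG-rich promoters. PCGF1 libraries had few regions, with 11067 and 10164 kept domains. By MACS2 2 and 0 of the 10 had a PCGF1 peak, against 5.34% and 2.11% of all promoters.

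Density ordered the members in a similar way for several proteins. FZD1, FZD7 and FZD5 had the 3 highest MTF2 densities, at 82.3, 74.6 and 60.9 scaled reads per kb in shDPPA4 and 97.4, 87.8 and 71.1 in shDPPA2+4. In shDPPA4 they lay above 99.1%, 98.6% and 96.3% of the promoters with an MTF2 domain. FZD2, of the same subfamily as FZD1 and FZD7, had 13 and 14.7, the lowest of the 10 in both lines. DPPA4n densities were highest at FZD7, with 112 and 163 scaled reads per kb, then FZD5 in shDPPA4 (82.5) and FZD1 in shDPPA2+4 (124). FZD2 had 65.1 and 81.2 by DPPA4n, above 92.4% and 87.3% of promoters with a domain, so its MTF2 and DPPA4n places differed widely. RING1B was densest at FZD1, with 80.5 and 82.8. These densities come from 1 library per protein and line.

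FZD10 was the member with the most different pattern. MTF2 had a peak of 22.4-fold in the shDPPA4 control and 23.2-fold in the shDPPA2+4 control, in domains of 12100 bp (1011 reads over 20 IgG reads) and 16100 bp (1482 reads over 31). These domains ranked 73 of 12277 and 48 of 12401 promoters with an MTF2 domain by length, whereas the density of 33.6 and 29.4 scaled reads per kb lay above 73.2% and 62.6% of them. The domain covered all of the coding sequence of FZD10 and began at -8863 and -9763 bp from its start site. RING1B was present with 20 reads over 1 IgG read in shDPPA4 and 25 over 2 in shDPPA2+4. DPPA4n gave 9 reads over 1 IgG read in the shDPPA2+4 control (95% Poisson interval 4.12 to 17.1 reads), no domain in the other control, and no peak in either. EP300 and PCGF1 gave no domain at FZD10 in either line. A promoter without a domain did not pass the caller, which does not show that the protein was absent.

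Promoters of this kind, with MTF2 and RING1B domains in both controls and no DPPA2 or DPPA4 region from either caller in the 16 parental H661 and H1299 libraries, numbered 275 of 19970, or 1.38%. The rule was written after the values of FZD10 had been seen. Among 59 other Wnt pathway genes it also held for SFRP2 and DKK2, secreted Wnt antagonists, and for RSPO1, an R-spondin that raises receptor levels.

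The doxycycline arms asked what becomes of DPPA4 and RING1B at these promoters under the hairpins. Density (scaled reads per kb of domain) was compared between 1 control and 1 doxycycline library per line, and a promoter was called lower or higher past 1.5-fold, with no test. In shDPPA4, DPPA4n density was lower at 2 of the 8 Frizzled promoters with a domain in both arms (FZD7 and FZD3), against 32.4% of all promoters, and higher at 0, against 4.45%. FZD6 lost its domain, 1 of 9, against 21% of all. In shDPPA2+4 it was lower at 8 of 9, all but FZD4, against 53.2%, and higher at 0, against 1.11%. FZD10 lost the domain of 9 reads, 1 of 10, against 9.84%.

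FZD7 fell from 112 to 58.96 scaled reads per kb in shDPPA4, a log2 change of -0.93 with a 95% counting interval from -1.08 to -0.79. In shDPPA2+4 FZD7 fell from 163 to 52.3, a log2 change of -1.64 (-1.79 to -1.49), or 3.12-fold, and 1.03% of the 12182 promoters fell further. FZD3 fell from 36.8 to 15.1 in shDPPA4 (log2 change -1.29, interval -1.67 to -0.91) and from 43.3 to 23.7 in shDPPA2+4 (-0.87, interval -1.21 to -0.52). FZD1 density was 73.9 and 71.1 in shDPPA4, a log2 change of -0.06 whose interval, -0.26 to 0.15, includes 0. Its domain length there went from 4000 to 2000 bp, and the scaled total of reads in it fell 2.08-fold. In shDPPA2+4 FZD1 density fell from 124 to 66.8, by 0.89 on the log2 scale. FZD4 density moved least in shDPPA2+4, from 54.4 to 41.8 (-0.38, interval -0.72 to -0.04). By scaled total FZD4 fell 2.70-fold there, and the smallest fall was 1.87-fold, at FZD2. The median log2 change over all promoters was -0.37 in shDPPA4 and -0.62 in shDPPA2+4, and over the Frizzled promoters -0.47 and -0.87.

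Domains also became shorter. In shDPPA4 the DPPA4n domains were shorter after doxycycline at 8 of 8 Frizzled promoters, against 97% of all, and in shDPPA2+4 at 8 of 9, against 86.8%, FZD7 being the exception with 5300 and 5400 bp. FZD8 shortened from 9500 to 3100 bp in shDPPA4 and from 8800 to 4000 bp in shDPPA2+4. At FZD9 the summed length of the domains went from 7400 to 3700 bp and from 7100 to 3000 bp. Density does not count reads in the stretch that was lost. The scaled total of reads in the domains was lower past 1.5-fold at 8 of 8 in shDPPA4, against 94% of all promoters, and at 9 of 9 in shDPPA2+4, against 92.6%. By that measure FZD8 fell 3.53-fold and 3.34-fold, and FZD9 2.84-fold and 4.44-fold. Scaling carries part of these values: library size over IgG was 2.96 in control and 1.66 after doxycycline in shDPPA4, and 1.06 and 2.05 in shDPPA2+4. Without scaling, the count of lower Frizzled promoters was 8 of 8 in shDPPA4, against 87.9% of all promoters, and 1 of 9 (FZD7) in shDPPA2+4, against 1.86%. The median unscaled log2 change over all promoters was -1.21 and 0.32.

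**Figure D3:**
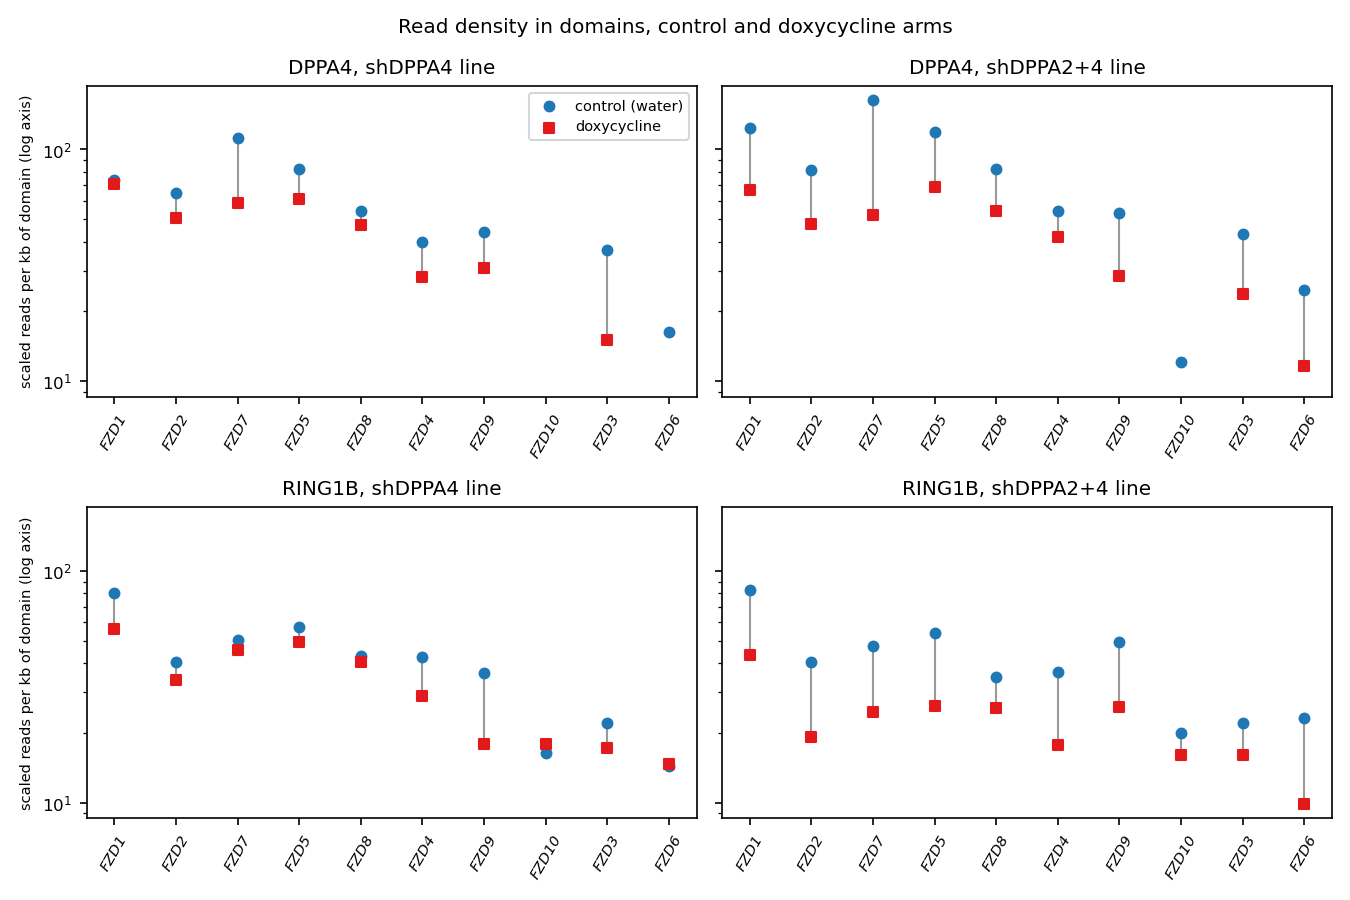
DPPA4n (top) and RING1B (bottom) density in scaled reads per kb of domain, log axis, at each Frizzled promoter in the control (blue circles) and doxycycline (red squares) arms of the shDPPA4 (left) and shDPPA2+4 (right) lines, 1 library each. A missing symbol means no domain; DPPA4n at FZD7 drops from 163 to 52.3 in shDPPA2+4, and RING1B symbols lie close together in shDPPA4 except at FZD9.

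RING1B density in shDPPA4 was lower past 1.5-fold at 1 of 10 Frizzled promoters, FZD9, against 22.7% of all promoters. It was higher at 0, against 1.62%, and lost at 0, against 3.93%. FZD9 went from 36.3 to 17.9 scaled reads per kb, a log2 change of -1.02 (interval -1.54 to -0.51) from 57 and 64 reads. Its domain lengthened from 900 to 1600 bp, its scaled total was lower by only 1.14-fold, and its MACS2 fold was higher, so the direction at FZD9 depended on the measure. Longer RING1B domains were general in that line after doxycycline. The median length ratio over all promoters was 1.2, and 23.7% had shorter domains. In shDPPA2+4 RING1B density was lower at 7 of 10, against 60.6% of all promoters, higher at 0, against 0.53%, and lost at 0, against 22.8%. The 3 not called were FZD8 (-0.43), FZD3 (-0.47) and FZD10 (-0.31). FZD6 had the most negative log2 change, -1.24 (interval -1.96 to -0.52), from 38 and 26 reads, followed by FZD2 (-1.07), FZD4 (-1.05) and FZD5 (-1.05). The median over all promoters was -0.69, and over the Frizzled promoters -0.94. The RING1B libraries differed in size over IgG, 1.26 in control and 2.03 after doxycycline in shDPPA2+4, and without scaling 0 of 10 were lower there, against 8.64% of all promoters. By scaled totals, RING1B was lower at 0 of 10 in shDPPA4, against 10.2% of all promoters, and at 8 of 10 in shDPPA2+4, against 58.3%.

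RING1B at FZD10 differed in extent between the lines. In shDPPA4 its domains covered 700 bp and 20 reads in control and 5100 bp and 205 reads after doxycycline, and in shDPPA2+4 1000 bp and 25 reads and then 400 bp and 13 reads. Of those 205 reads, 152 lay in a separate upstream domain, from -5263 to -1464 bp, that met only the edge of the window. The domain at the start site, from -863 to 436 bp, held 53 reads. Density changed little in either line, by 0.13 (interval -0.53 to 0.80) and -0.31 (interval -1.28 to 0.65) on the log2 scale. The difference between the lines was not tested, as each arm had 1 library.

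Other Wnt pathway genes place the Frizzled counts in their pathway. In parental H661, MACS2 peaks of DPPA2 and DPPA4n were both at 7 of 19 Wnt ligand genes, 6 of 6 co-receptor genes, 3 of 11 secreted antagonist genes, 2 of 9 receptor turnover genes and 12 of 14 cytoplasmic and nuclear genes, together 30 of 59, beside the 39.2% of all promoters. The highest DPPA2 fold of each class was 14.2 at WNT7B, 16.3 at ROR2, 35.3 at SFRP4, 10.2 at LGR4 and 15.3 at TCF7L1. Of these, SFRP4 alone reached the level of FZD7 and FZD1. In H1299, DPPA2 and DPPA4n domains in both replicates were at 2 of 19 ligands, 4 of 6 co-receptors, 3 of 11 antagonists, 1 of 9 turnover genes and 8 of 14 cytoplasmic and nuclear genes, together 18 of 59, beside the 30.6% of all promoters and the 9 of 10 Frizzled genes. The shares of CpG-rich promoters were 61.2% in H661 and 49.4% in H1299. CpG-rich promoters made up 11, 6, 3, 6 and 12 of these classes in that order, and 9 of 10 Frizzled promoters. The part of CpG content in these differences was not tested.

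The promoters nearest to the median Frizzled profile over the 30 libraries, by Euclidean distance of log2 folds, were SPIRE1 at 3.05 and SYS1 and SYS1-DBNDD2, which share a promoter, at 3.38. FZD7 was the closest member, at 3.5 and rank 6 of all promoters, and FZD10 the farthest, at 16.5. Each member is part of that median, so its rank is not a like comparison with other promoters. Within the family, the most alike pair over the 30 libraries was FZD5 and FZD3 (Pearson r of 0.76), followed by FZD7 and FZD8 (0.69). These values describe 30 libraries that share lines, IgG controls and antibodies, and carry no test.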

How the data were processed

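CUT&RUN libraries of H661, its hairpin lines and H1299 were analysed from region lists: 30 of the 38 samples had files and 8 were IgG controls. The authors trimmed reads with Trim Galore (0.6.6, per the submitters' notes on processing), mapped them to hg38 with BWA (0.7.13) and used SAMtools (1.9) and Picard (2.6.0). They called regions per library, without pooling replicates, with MACS2 (2.27.1 in the notes) and EPIC2, whose version for CUT&RUN is not given in the sources used here. The deposited EPIC2 files hold raw read counts of the library and its IgG per domain, a log2 fold over IgG scaled by the authors for library size, a p-value and a score. The deposited MACS2 peaks hold a fold enrichment ratio over IgG, -log10 p and q values and a score. No file was given in normalized units.

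Regions with a false discovery rate below 0.05 and a log2 fold above 1 (MACS2 fold above 2) outside chromosome Y, the mitochondrial genome and unplaced contigs were retained, as the study filtered. Its blacklist was not applied. Promoters were GENCODE 44 canonical start sites ± 1500 bp. Parental H661 was read from MACS2 peaks and all other groups from EPIC2 domains. Density was reads per kb of domain divided by library size over IgG, which follows from the constant offset between log2 fold and the ratio of counts. The total depth of a library cannot be read from region lists, and intervals cover counting error only. For H1299, the highest log2 fold per promoter (0 without a domain) was compared at promoters with a domain in at least 1 library. An exact permutation test of 6 against 6 libraries was used, with limma (3.58.1, R 4.3.3) as the alternative. Both were tried on simulated data without replicate differences, where the permutation test was judged by unadjusted p. Python 3.11.15, NumPy 2.4.6, pandas 2.3.3 and SciPy 1.17.1 were used. All 10 Frizzled genes are described. Other Wnt genes are given by class counts and by the gene of highest DPPA2 fold among those with both factors, and the 3 genes nearest the median profile are named. The members and lists were chosen with earlier results of these data known. Alternatives covered the window, fold limit, caller, antibody, scaling and leaving out each H1299 library. Scaled total reads were added as a measure after the data had been seen.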

Additional observations from a re-analysis of the deposited data

Results flagged for a closer look

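In H1299, the second Flag monoclonal library lay apart from the other 5 DPPA2-directed libraries at FZD2 and FZD8, with a log2 fold of 0 at both because it had no domain there. Its gap to the nearest library was 0.686 and 0.714 of the range of its set. These were 2 of 18 sets of 6 libraries examined, and chance alone places about 1 in 20 sets past the limit used. That library had 4904 kept domains, the fewest of the 12, and the part of this low count in these values was not tested.

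RING1B density moved in opposite directions in the hairpin lines at FZD10 (log2 change 0.13 in shDPPA4 and -0.31 in shDPPA2+4) and at FZD6 (0.029 and -1.24). With 1 library per arm the difference between the lines was not tested. The counting intervals of both changes at FZD10, and of the shDPPA4 change at FZD6, include 0.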

How the results depend on the processing

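Both factors were at 8 of 10 Frizzled promoters in parental H661 and this count became 5 with the central-region antibody. In H1299 the count of 9 became 3 with MACS2 peaks, and leaving out either replicate gave 9 and 9. The PCGF1 counts of 5 (shDPPA4) and 7 (shDPPA2+4) became 2 and 0 with MACS2 peaks, and the latter became 4 with a log2 fold above 2. The count of lower DPPA4n density in shDPPA4, 2, became 8 without scaling, 4 by the log2 fold of the highest domain, 7 by MACS2 fold, 1 at a fold of 2 and 8 by scaled totals, a measure chosen after seeing the data. The count in shDPPA2+4, 8, became 5 with windows of ± 500 bp, 5 with a log2 fold above 2, 1 without scaling and 2 at a fold of 2. The RING1B count of 1 in shDPPA4 became 0 with a log2 fold above 2, 2 by the log2 fold of the highest domain, 2 by MACS2 fold and 0 by scaled totals. The RING1B count of 7 in shDPPA2+4 became 3 with a log2 fold above 2, 0 without scaling, 4 by MACS2 fold and 4 at a fold of 2. Library size over IgG sets the scaling; the cause of the other differences was not tested.

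Without scaling, DPPA4n in shDPPA2+4 changed direction at FZD1 (0.051), FZD2 (0.17), FZD5 (0.16), FZD8 (0.34), FZD9 (0.039) and FZD3 (0.079). By MACS2 fold, RING1B at FZD9 turned to 0.63 in shDPPA4 and 0.037 in shDPPA2+4. The H1299 difference at FZD5 turned to -0.16 with windows of ± 500 bp and to -0.10 with MACS2 peaks. The counts of called promoters in H1299 stayed at 0 in every alternative run, from 0 to 0 when each library was left out in turn. Leaving out each library in turn moved the difference from -0.68 to 0.053 at FZD1, -0.32 to 0.58 at FZD2, -0.76 to 0.60 at FZD3, -1.07 to 0.24 at FZD8 and -0.24 to 0.30 at FZD9, and none of these 9 promoters' differences passed the test.

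The main H1299 test did not use replicate numbers to pair libraries. Across 15 pairs of antibodies the deviations of same-numbered replicates correlated at 0.066 to 0.264. Of these, 12 of 15 lay above the limit of 0.1 set for pairing, so the main test leaves a shared replicate difference in its spread. With the replicate number as a block (400 relabellings, smallest possible exact permutation p 0.005) 0 promoters were called, 868 had an unadjusted p under 0.05 where 141 did without it, and limma with the block also called 0.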
